A study of Mus musculus with 2 samples.

Results

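Interleukin 2 (Il2), the 3 chains of its receptor (Il2ra, Il2rb and Il2rg) and Cish, a feedback inhibitor of its signal, were followed through the T cells of the inflamed mouse colon. These 5 genes were chosen by name from the 11971 genes of the deposited table, and all 5 were found in it. The study put CD4 T cells into Rag-/- mice, which make no T or B cells of their own, and the transfer causes colitis. The 6 WT-labelled recipients were given CD4+ CD45RBhigh CD25- T cells, and the 6 KO-labelled recipients were given BCL-6 deficient CD4+ T cells. In both groups the T cells studied had therefore lived in a host without its own T and B cells. Strain, age and the allele behind the BCL-6 deficiency are not given in the labels. TCRb+CD4+ T cells were sorted from each colon. A hashtag antibody told the mice apart after all cells had been run together as 1 library. Counts were of unique molecular identifiers (UMIs), which stand for captured RNA molecules, and the mouse was the replicate throughout.

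Interleukin 2 is a growth factor that T cells release when their receptor is engaged together with a costimulatory signal. Il2ra encodes CD25, the alpha chain that raises the affinity of the receptor but carries no signal, while Il2rb and Il2rg encode the beta and common gamma chains that signal through JAK1, JAK3 and STAT5. STAT5 switches on Il2ra and Cish, and Cish protein then dampens the signal. Regulatory T cells carry much CD25 and are known for making little or no interleukin 2, so they depend on other T cells for it. The cells given to WT-labelled recipients had been chosen for the absence of surface CD25. The description of the BCL-6 deficient cells given above names no such choice. A difference between the labels, called a genotype effect below, therefore cannot be told apart from one in how the transferred cells were chosen.

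In GRCm38 coordinates of the GENCODE annotation, Il2 (ENSMUSG00000027720) lies at chr3:37120523-37125959 on the minus strand, 96.8 kb from Il21. Il2ra (ENSMUSG00000026770) lies at chr2:11642807-11693193 on the plus strand and Il2rb (ENSMUSG00000068227) at chr15:78479256-78495271 on the minus strand. Il2rg (ENSMUSG00000031304) lies at chrX:101264378-101268255 on the minus strand and Cish (ENSMUSG00000032578) at chr9:107296026-107302784 on the plus strand. RefSeq promoter windows of GRCm38 were matched for 4 of the 5 genes, namely Il2, Il2ra, Il2rg and Cish. The 250 bases before the Il2 start are shown because Il2 carried the difference between genotypes, and because transcription factors of the NFAT family, which act on Il2 after T cell receptor signals, bind the core GGAAA. Capitals mark the cores found on either strand, in chr3:37125955-37126204 read on the minus strand.
Il2: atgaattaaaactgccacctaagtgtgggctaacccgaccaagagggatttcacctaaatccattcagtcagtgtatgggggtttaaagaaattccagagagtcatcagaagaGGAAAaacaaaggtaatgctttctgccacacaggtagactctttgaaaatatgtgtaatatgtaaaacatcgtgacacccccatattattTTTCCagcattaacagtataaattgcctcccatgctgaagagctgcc
The window held 2 cores, and at least as many were found in 21.4% of 32851 RefSeq promoters. It held no match to the AP-1 motif TGANTCA. A stretch of Cish at its RefSeq start is shown because Cish is a known STAT5 target. Capitals mark 2 matches to the STAT motif TTCNNNGAA in chr9:107296654-107296683 on the plus strand.
Cish: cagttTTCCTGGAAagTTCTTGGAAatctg
At least 2 such motifs were present in 0.457% of the 300-base windows around RefSeq starts, and each of the 2 in Cish overlaps a GGAAA core. The windows of Il2, Il2ra and Il2rg held no match to this motif. A match of letters is a description and says nothing of binding in these cells.

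The table held 18860 cells and 57634998 UMIs, with 1409 to 1736 cells and 4252124 to 5523025 UMIs per mouse. The median cell of a KO-labelled mouse held 2381 to 2997 UMIs, and that of a WT-labelled mouse 2864 to 3102.5. The authors' subsets were used. They are recirculating (4292 cells), cytotoxic (3855), Th17 (2221), cycling (1188) and regulatory cells (380), and clusters that carry only a general CD4 label, called unnamed 1 (3940 cells) and unnamed 3 (2984). Most markers followed the names. Il17a, the cytokine gene of the Th17 lineage, was highest in Th17 cells. Foxp3, the defining factor of regulatory T cells, stood at 409 and 537 CPM (counts per 1e6 UMIs) in regulatory cells of KO-labelled and WT-labelled mice and at no more than 1.91 CPM in any other subset. The recirculating subset had the most S1pr1 (121 and 128 CPM). Markers of the T cell lineage were high in every mouse, while natural killer markers summed to 1.41 to 8.75 CPM and epithelial markers to 4.79 to 22.7 CPM. Myeloid and dendritic markers summed to 173 to 245 CPM, mostly Cst3 and Cd74, with Csf1r at no more than 2.41 CPM and Lyz2 at no more than 8.44 CPM in any subset. Of the B cell markers Igkc alone was analysed here, at 0 to 5.55 CPM in mice of the KO label and 10.6 to 24.6 CPM in those of the WT label. It was highest in regulatory cells (47.0 and 108 CPM) and cytotoxic cells (4.02 and 57.2 CPM). The part of these RNAs in the results was not tested. Bcl6 itself stood at 81.1 ± 11.3 CPM in KO-labelled and 56.4 ± 7.93 CPM in WT-labelled mice (SD, n = 6 each), so the 5′ UMI counts give no check of the deletion.

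Il2 RNA was rare. It was detected in 1008 of 18860 cells (5.34%), 827 of which held 1 UMI, and of its 1633 UMIs KO-labelled mice held 1241 and WT-labelled mice 392. By subset, Il2 was highest in unnamed 3 cells in both genotypes. There the level in KO-labelled mice ran from 52.3 through a median of 74.6 to 161 CPM, and in WT-labelled mice from 18.7 through 39.8 to 73.3 CPM. The ranges of the genotypes overlapped. Th17 cells, which defend mucosae through interleukin 17, were next by mean and ran from 3.36 to 333 CPM in KO-labelled and from 2.23 to 50.01 CPM in WT-labelled mice.

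Cytotoxic cells held 42.4 ± 21.7 CPM of Il2 in KO-labelled mice and unnamed 1 cells 33.9 ± 14.6 CPM (SD, n = 6). Cycling cells held 26.9 ± 13.3 CPM and recirculating cells 20.7 ± 5.85 CPM in the same mice. Every neighbour in this order overlapped the next in range, down to the regulatory cells, which had none. In WT-labelled mice, levels below unnamed 3 and Th17 were all low, at 10.3 ± 6.84 CPM in recirculating, 9.25 ± 3.61 CPM in cytotoxic, 7.47 ± 6.42 CPM in cycling and 5.001 ± 1.97 CPM in unnamed 1 cells. These neighbours also overlapped in range. Regulatory cells of WT-labelled mice had Il2 in 1 of 3 mice, at 28.03 CPM from 2 UMIs. Thinned to 1500 UMIs per cell, Il2 was found in 8.34% ± 1.86 of unnamed 3 cells of KO-labelled mice and in 3.20% ± 2.30 to 5.14% ± 2.73 of the other subsets except regulatory cells. In WT-labelled mice it was found in 5.19% ± 2.59 of unnamed 3 cells and in at most 1.44% of any other subset. Levels set between subsets are descriptions, since the subsets were themselves clustered on expression.

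Regulatory cells gave the background for Il2. No Il2 UMI was found in 254 regulatory cells of KO-labelled mice. The upper end of the exact Clopper-Pearson 95% interval was 1.44% of cells. In WT-labelled mice 2 of 126 cells had one, or 1.59% (exact Clopper-Pearson 95% interval 0.193% to 5.62%), and over both genotypes the share was 0.53%. Intervals and limits here pool cells over mice and cover counting error only, so they do not measure the spread between mice. Regulatory cells were not deep, at a median of 2453 and 2700 UMIs. In these droplet data such a share can come from free RNA. The share in unnamed 1 cells of WT-labelled mice, 1.43% (0.715% to 2.54%) at a median of 2889.5 UMIs, lay between the share in regulatory cells of the same mice and that over both genotypes. Its interval overlapped that of regulatory cells of the same mice, and at this number of cells the shares were not told apart. No test was run between them. In unnamed 1 cells of KO-labelled mice the share was 6.66% (5.81% to 7.58%) at a median of 2643 UMIs.

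**Figure D1:**
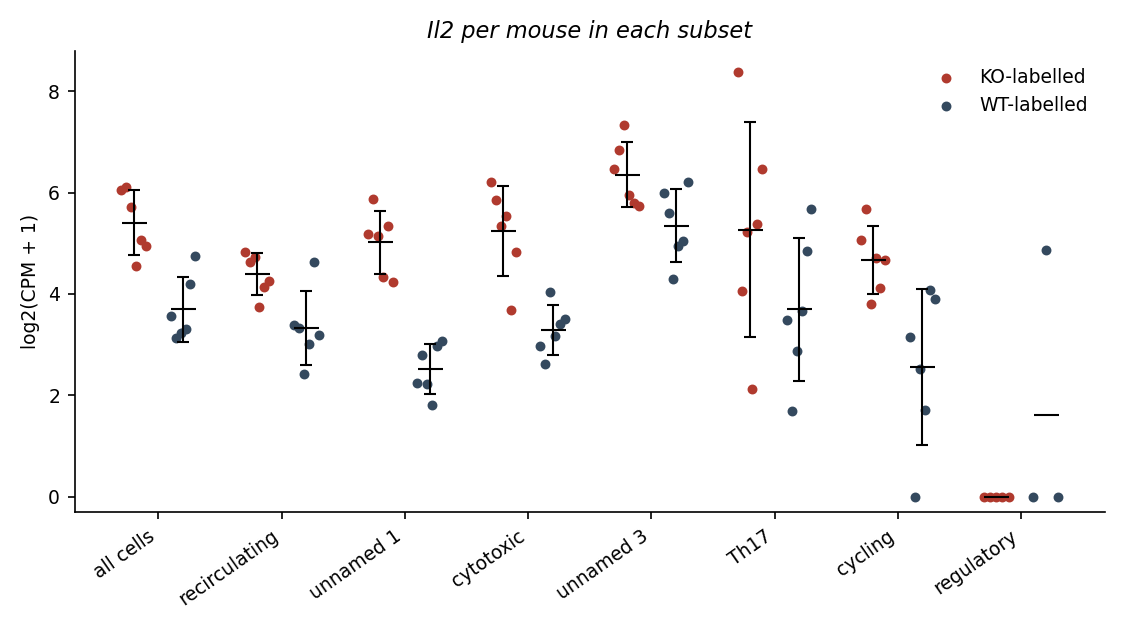
Il2 in each mouse, as log2(CPM + 1), over all cells and in each subset, with KO-labelled mice in red and WT-labelled mice in dark blue. Horizontal marks are means and bars are SDs for groups of 6 mice, with the mean alone for regulatory cells (5 and 3 mice). Unnamed 3 cells were highest by mean in both genotypes, the genotypes did not overlap in unnamed 1 cells, and regulatory cells of KO-labelled mice sat at 0.

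Il2 rose in KO-labelled mice. Over all cells of a mouse the level ran from 22.6 through a median of 42.2 to 67.7 CPM, against 7.80 through 9.93 to 26.0 CPM in WT-labelled mice. KO-labelled mouse 4 was the lowest of its group and WT-labelled mouse 6 the highest of its own, and these overlapped. The log2 fold change was 1.72 ± 0.32 (SE, edgeR quasi-likelihood test, Benjamini-Hochberg adjusted p = 0.00167). Across all genes tested 14.2% were called in this comparison at an adjusted p under 0.05. Sums over a mouse cannot tell more positive cells from more RNA in each. Positive cells of KO-labelled mice held 1.66 UMIs on average and those of WT-labelled mice 1.50, and such cells were 7.68% and 2.86% of all cells.

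With every cell thinned to 1500 UMIs, Il2 was detected in 4.81% ± 1.74 of cells of KO-labelled mice and 1.59% ± 0.65 of cells of WT-labelled mice (SD, n = 6). The ranges, 2.70% to 7.08% and 1.05% to 2.47%, did not overlap, and the exact permutation p was 0.00216, the smallest that 924 assignments of the mice can give (adjusted p = 0.0108 over the 5 genes, two-sided). Thinning left out 491 cells of KO-labelled and 407 cells of WT-labelled mice. Without thinning the shares were 7.61% and 2.86%.

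Within subsets, 6 of 33 tests of the 5 genes were called. Il2 rose in unnamed 1 cells by 2.78 ± 0.43 on the log2 scale (edgeR adjusted p = 0.000302), where 4.65% of genes were called. The 6 KO-labelled mice lay between 17.7 and 57.4 CPM and the WT-labelled mice between 2.52 and 7.37 CPM, a level resting on 11 UMIs in all. In cytotoxic cells Il2 rose by 1.94 ± 0.31 (adjusted p = 0.000425), with 2.89% of genes called. KO-labelled mice there lay between 11.9 and 73.5 CPM and WT-labelled mice between 5.13 and 15.5 CPM, and only KO-labelled mouse 5 fell inside the WT range.

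In unnamed 3 cells the difference of 0.90 ± 0.30 did not pass (adjusted p = 0.0553), in a comparison that called 8.42% of genes. In recirculating cells it was 0.91 ± 0.29 and did not pass either (adjusted p = 0.0626, 5.48% of genes called). Without the filter on low counts both passed, at adjusted p = 0.00305 and 0.0467. In Th17 cells Il2 rose by 2.22 ± 0.61 (adjusted p = 0.0315, 5.09% of genes called), but this rested on few mice. Without KO-labelled mouse 1 it was 1.24 (adjusted p = 0.293), and the call was also lost with the DESeq2 test (adjusted p = 0.309) and without KO-labelled mouse 6 or any of WT-labelled mice 1 to 4.

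Il2 was too sparse for the filter in cycling cells, where 5.36% of genes were called, and in regulatory cells, where 0.513% were. Cycling cells of KO-labelled mice held 12.9 to 50.1 CPM and those of WT-labelled mice 0 to 16 CPM. With no filter the cycling difference was 1.72 ± 0.39 (adjusted p = 0.00548). The genotype effect on Il2 was not shown to differ among the subsets (adjusted p = 0.332 for any difference, edgeR with the mouse as a block, 3.16% of genes called).

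A few cells held much of the Il2. Only 8 cells had 10 or more Il2 UMIs, and these held 325 of the 1633 UMIs, or 19.9%. They came from 6 mice. Of the 8, 7 were from KO-labelled mice, with 3 among Th17, 2 among unnamed 3, 1 among unnamed 1 and 1 among cytotoxic cells, and the other was a Th17 cell of WT-labelled mouse 6. The highest held 62 Il2 UMIs of 1851 in all, beside 24 UMIs of Il17a and 13 of Ifng, and came from unnamed 3 cells of KO-labelled mouse 3. Next was the WT-labelled Th17 cell, with 53 Il2, 55 Il17a and 23 Il22 UMIs. The third, an unnamed 3 cell of KO-labelled mouse 2, held 52 Il2 UMIs and 71 of Csf2, which encodes the myeloid growth factor GM-CSF.

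Csf2 also accompanied Il2 in 3 Th17 cells of KO-labelled mice, at 28, 40 and 11 UMIs beside 49, 46 and 40 of Il2. The unnamed 1 cell held 12 Il2 and 54 Ifng UMIs, and the cytotoxic cell held 11 Il2, 77 Ifng and 138 Ccl4 UMIs. When the Il2 UMIs of these 8 cells were left out, an alternative chosen after seeing the data, the log2 fold change over all cells was 1.57 ± 0.25 (edgeR adjusted p = 0.00062). The mice then no longer overlapped, at 20.1 to 52.7 CPM against 7.80 to 17.3 CPM. Unnamed 1 cells kept their call (2.72, adjusted p = 0.00018), as did cytotoxic cells (1.72, adjusted p = 0.00228). Unnamed 3 cells then stood at 0.51 (adjusted p = 0.187). Th17 cells of KO-labelled mice were left with 39 Il2 UMIs and those of WT-labelled mice with 67, at 23.0 ± 15.1 and 11.9 ± 8.68 CPM, too few for the filter.

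As sources, subsets gave Il2 out of proportion to their numbers. In KO-labelled mice unnamed 3 cells made up 23.1% ± 11.5 of cells and gave 34.4% ± 17 of Il2 UMIs, while unnamed 1 cells made up 32.6% ± 8.71 and gave 24.9% ± 10.5 (SD, n = 6). Th17 cells there were 5.83% ± 2.78 of cells and gave 12.9% ± 15.3 of the UMIs. Without the cells of 10 or more Il2 UMIs they gave 4.10% ± 2.53, so their share above their number rested on those cells. In WT-labelled mice no subset led. Th17 cells gave 24.3% ± 18.4, recirculating cells 22.8% ± 9.46, cytotoxic cells 22.5% ± 15.3 and unnamed 3 cells 20.7% ± 11.3 of Il2 UMIs, the last from 7.55% ± 1.60 of cells. Unnamed 1 cells of WT-labelled mice gave 3.34% ± 2.31 of the UMIs from 8.37% ± 2.25 of cells.

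**Figure D2:**
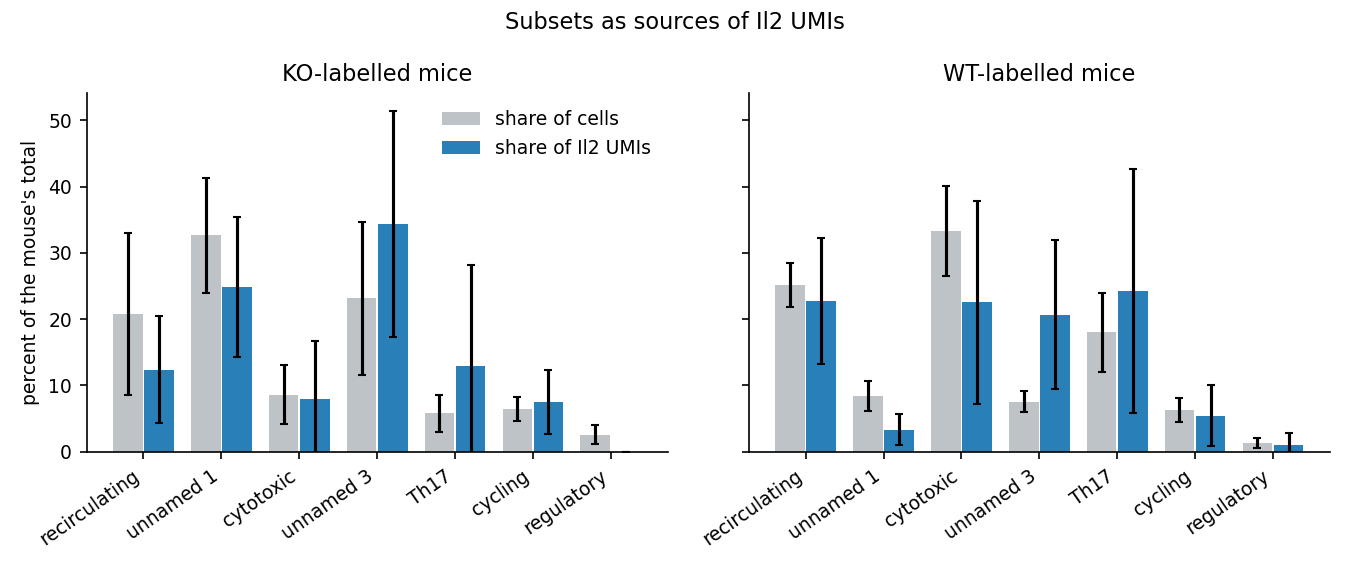
Share of each mouse's cells (grey) and of its Il2 UMIs (blue) that came from each subset, in percent, as means over 6 mice with SD bars, which are drawn only above 0. Unnamed 3 cells gave a larger share of Il2 UMIs than of cells in both genotypes, at 34.4% against 23.1% in KO-labelled and 20.7% against 7.55% in WT-labelled mice.

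The receptor followed another order. Il2ra, the CD25 gene, was highest in regulatory cells, at 544 to 968 CPM in 5 KO-labelled mice and 378 to 921 CPM in 3 WT-labelled mice. Unnamed 1 cells came next, at 225 to 338 CPM and 341 to 456 CPM. Th17 cells followed at 199 to 301 CPM and 150 to 207 CPM. Unnamed 3 cells, with the most Il2, had the least Il2ra by mean, at 48.0 ± 15 CPM in KO-labelled and 82.1 ± 39.7 CPM in WT-labelled mice (SD, n = 6).

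Cycling, recirculating and cytotoxic cells lay between, at 143 ± 20.5, 93.6 ± 36.0 and 66.7 ± 32.5 CPM in KO-labelled mice and 134 ± 14.6, 128 ± 25.3 and 106 ± 31.2 CPM in WT-labelled mice. Neighbours in the order from cycling down to unnamed 3 cells overlapped in range in both genotypes. In KO-labelled mice regulatory cells lay above every unnamed 1 value, and Th17 cells lay above every cycling value. In WT-labelled mice regulatory and unnamed 1 cells overlapped, and unnamed 1 cells lay above every Th17 value. After thinning to 1500 UMIs, Il2ra was detected in 56.8% ± 14.4 of regulatory cells of KO-labelled mice (mean and SD over mice, n = 5). The shares there were 28.2% ± 3.998 in unnamed 1 cells and 5.78% ± 2.10 in unnamed 3 cells (n = 6). In WT-labelled mice the shares in the same subsets were 53.1% ± 11.3 (n = 3), 37.2% ± 3.96 and 10.6% ± 4.61 (n = 6).

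Il2rb and Il2rg, the signalling chains, were present in every subset and spread less. Il2rb was highest in Th17 cells of KO-labelled mice, at 476 to 739 CPM, and in regulatory cells of WT-labelled mice, at 575 to 943 CPM. It was lowest by mean in unnamed 3 cells of KO-labelled mice (310 ± 36.8 CPM) and in cytotoxic cells of WT-labelled mice (320 ± 51.6 CPM). Il2rg, which also serves the receptors of interleukins 4, 7, 9, 15 and 21, was highest in regulatory cells, at 1288 ± 90.4 and 1239 ± 42.3 CPM (n = 5 and 3). Its lowest means were 795 ± 123 CPM in cytotoxic cells of KO-labelled mice and 680 ± 60.8 CPM in cycling cells of WT-labelled mice. Most neighbours in these orders overlapped in range.

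Cish, a known target of the signal rather than a part of the receptor, was highest in Th17, regulatory and unnamed 1 cells. Th17 cells held 489 ± 49.3 CPM in KO-labelled and 411 ± 39.9 CPM in WT-labelled mice (n = 6), and regulatory cells 451 ± 33.6 and 440 ± 72.2 CPM (n = 5 and 3). Unnamed 1 cells held 393 ± 55.3 and 434 ± 40.9 CPM, and these 3 subsets overlapped in range. The lowest means were in unnamed 3 cells of KO-labelled mice (260 ± 37.3 CPM) and in cycling cells of WT-labelled mice (241 ± 31.2 CPM). Cish is also induced by other cytokines that act through STAT5, so it is not particular to interleukin 2.

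**Figure D3:**
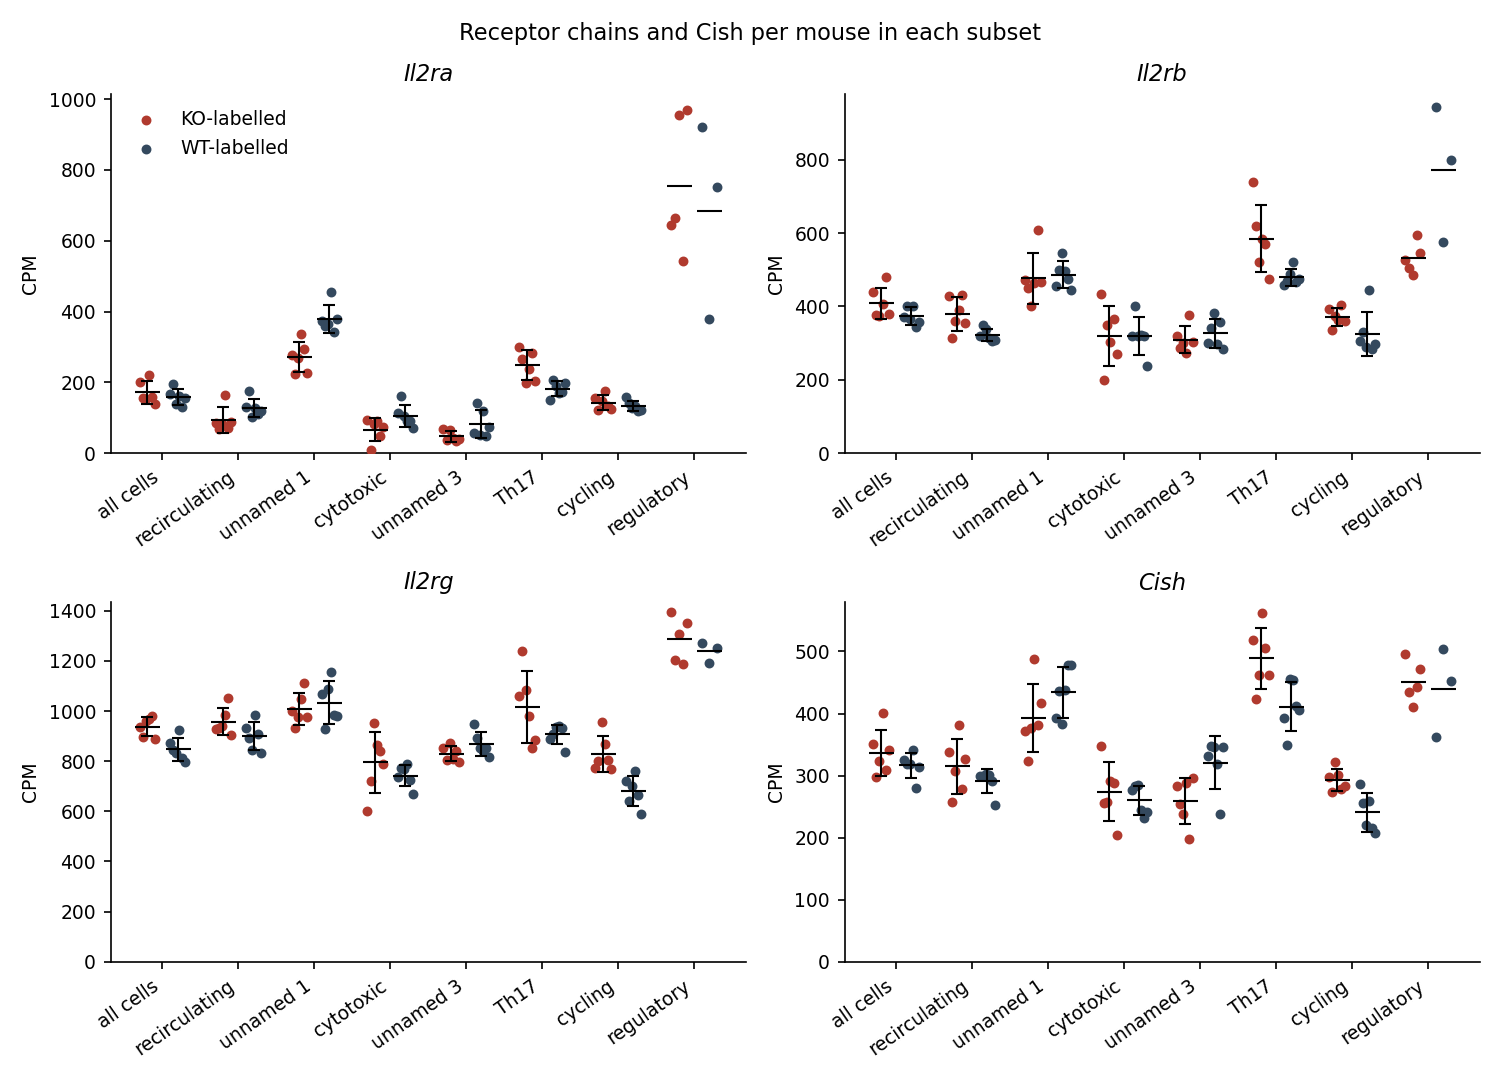
CPM of Il2ra, Il2rb, Il2rg and Cish in each mouse, over all cells and in each subset, with KO-labelled mice in red and WT-labelled mice in dark blue. Horizontal marks are means and bars are SDs for groups of 6 mice, with the mean alone for regulatory cells (5 and 3 mice). Il2ra peaked in regulatory cells and was lowest in unnamed 3 cells, while the other genes spread less between subsets.

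Over all cells no receptor chain was called between the genotypes. The edgeR log2 fold changes were 0.07 ± 0.12 for Il2ra (adjusted p = 0.746), 0.09 ± 0.06 for Il2rb (0.416), 0.11 ± 0.04 for Il2rg (0.137) and 0.05 ± 0.07 for Cish (0.693). Il2ra stood at 140 to 222 CPM in KO-labelled and 132 to 197 CPM in WT-labelled mice. This sum mixes subsets whose shares differed, since unnamed 1 cells, rich in Il2ra, made up 32.6% of a KO-labelled mouse's cells and 8.37% of a WT-labelled mouse's. When each subset was given the same weight in every mouse, Il2ra fell by 0.34 ± 0.09 (edgeR adjusted p = 0.0155), and Il2 rose by 1.60 ± 0.28 (adjusted p = 0.000675). The sign for Il2ra over all cells therefore reversed with the weighting.

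Within subsets Il2ra fell in unnamed 1 cells by 0.54 ± 0.10 on the log2 scale (edgeR adjusted p = 0.00163). The 6 KO-labelled mice, at 225 to 338 CPM with a median of 274 CPM, all lay below the WT-labelled mice, at 341 to 456 CPM with a median of 369 CPM. It also fell in unnamed 3 cells, by 0.81 ± 0.24 (adjusted p = 0.0315), where the mice overlapped at 35.5 to 67.9 and 49.7 to 143 CPM. That call was lost with the DESeq2 test (adjusted p = 0.0781) and without KO-labelled mouse 2 or 5 or WT-labelled mouse 2, 4 or 6. Without WT-labelled mouse 2 the value was -0.56 (adjusted p = 0.197).

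In cytotoxic cells the Il2ra difference was -0.60 ± 0.21 and in recirculating cells -0.46 ± 0.16, and neither passed (adjusted p = 0.144 and 0.104). The recirculating value turned on KO-labelled mouse 4, the only one of its group above 87.8 CPM, at 165 CPM against 103 to 175 CPM in WT-labelled mice. Without it the value was -0.73 (adjusted p = 0.000236). Th17 cells went the other way, at 0.39 ± 0.12 (adjusted p = 0.0533), with 4 of 6 KO-labelled mice above all WT-labelled mice. Cycling and regulatory cells showed 0.06 ± 0.12 and 0.08 ± 0.24, and did not pass (adjusted p = 0.877 and 0.957).

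The genotype effect on Il2ra differed among subsets (edgeR with the mouse as a block, adjusted p = 0.00182 for any difference). The effect in Th17 cells exceeded that in recirculating cells by 0.83 ± 0.20 on the log2 scale (adjusted p = 0.0469), which did not pass with limma on differences within mice (0.90, adjusted p = 0.411). The effect on Il2rb also differed among subsets (adjusted p = 0.00903). In regulatory cells Il2rb was 486 to 594 CPM in 5 KO-labelled and 575 to 943 CPM in 3 WT-labelled mice, a log2 difference of -0.58 ± 0.18 that did not pass on its own (adjusted p = 0.251). Against recirculating cells, where it was 0.18 ± 0.07 (adjusted p = 0.158), the effect in regulatory cells was lower by a log2 difference of -0.77 ± 0.17 (adjusted p = 0.0272, and 0.835 with limma).

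Cish fell in unnamed 3 cells by 0.40 ± 0.11 on the log2 scale (edgeR adjusted p = 0.0222). Its levels were 198 to 297 CPM with a median of 269 CPM in KO-labelled and 238 to 347 CPM with a median of 338 CPM in WT-labelled mice, and WT-labelled mouse 5 alone fell inside the KO range. The call was lost when KO-labelled mouse 3 or 5 or WT-labelled mouse 1, 2 or 6 was left out, with values from -0.31 to -0.38. The genotype effect on Cish differed among subsets (adjusted p = 0.00317). The other subset values ran from -0.20 ± 0.09 in unnamed 1 cells to 0.23 ± 0.09 in cycling cells and did not pass. For Il2rg no subset was called, with the lowest adjusted p, 0.0672, in cycling cells (0.23 ± 0.07), and the test of any difference among subsets gave 0.0617.

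**Figure D4:**
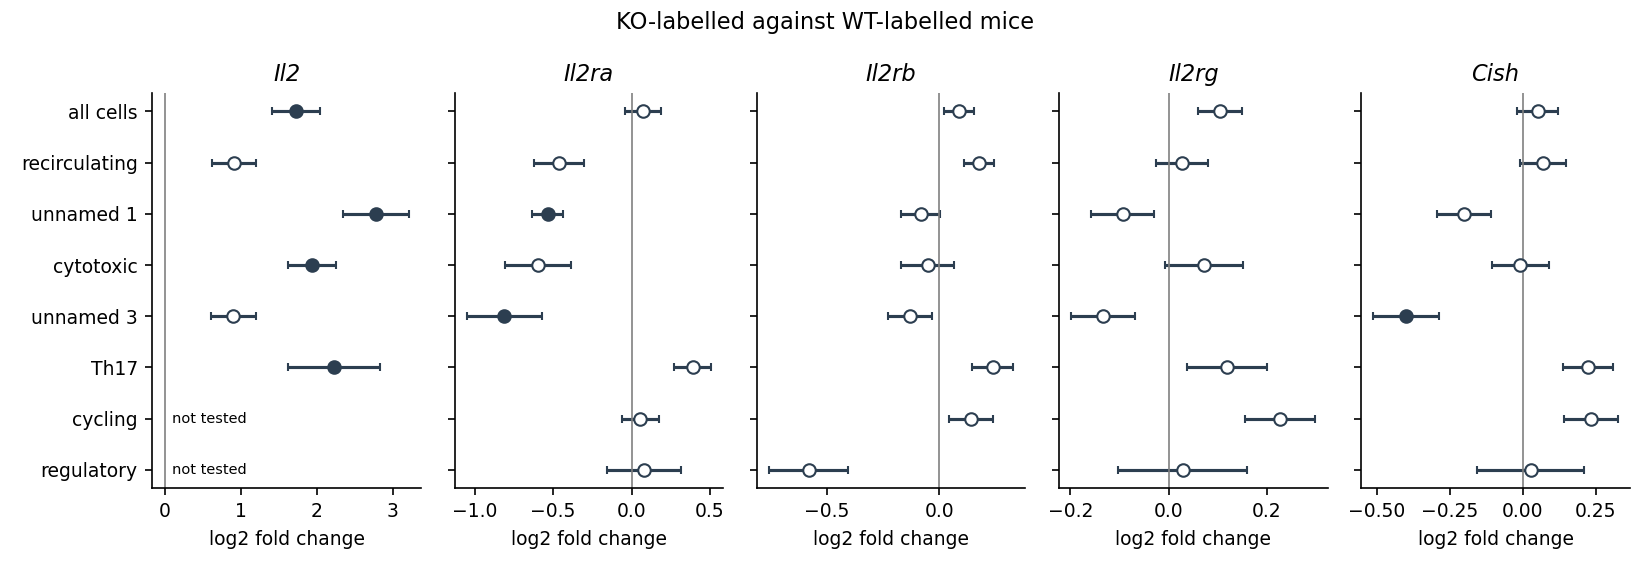
Log2 fold change of KO-labelled against WT-labelled mice for each gene over all cells and in each subset, with SE bars from the edgeR fit. Filled points passed an adjusted p of 0.05, open points did not, and each panel has its own scale. Il2 was called over all cells and in unnamed 1, cytotoxic and Th17 cells, Il2ra in unnamed 1 and unnamed 3 cells, and Cish in unnamed 3 cells.

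Of the thinned shares of cells with a receptor or Cish UMI, that of Il2rg passed the test over all cells. Il2ra was detected in 17.8% ± 3.11 and 16.9% ± 2.76 of cells of KO-labelled and WT-labelled mice (exact permutation p = 0.602). Il2rb was detected in 42.0% ± 3.39 and 39.5% ± 2.10 (exact p = 0.18), and Cish in 36.0% ± 2.96 and 34.4% ± 1.83 (exact p = 0.318). Il2rg was detected in 72.6% ± 1.69 and 68.9% ± 1.78 of cells (exact p = 0.00866, adjusted p = 0.0216 over the 5 genes). Without thinning the Il2rg shares were 87.0% and 86.1% (exact adjusted p = 0.741), beside the lower depth of KO-labelled cells given above. The mix of subsets also differed between KO-labelled and WT-labelled mice. Unnamed 1 cells, at 1007 and 1033.5 CPM of Il2rg, were 32.6% and 8.37% of cells. Cytotoxic cells, at 795 and 743 CPM, were 8.63% and 33.2%. With equal subset weights the log2 fold change of Il2rg was 0.02 ± 0.04 (edgeR adjusted p = 0.834). That fit was of levels and not of shares. The part of depth or subset mix in the called share was not tested.

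Cells with Il2 RNA were poorer in Il2ra than their neighbours. Both genes were seen in 190 cells, against 244 expected from their shares within each mouse, subset and class of cell depth (4 classes). The ratio was 0.778, with fewer than expected in 11 of 12 mice (exact sign-flip permutation p = 0.000977, adjusted p = 0.00195 over 2 pairs). In KO-labelled mice alone the ratio was 0.764, below 1 in 6 of 6 mice, and in WT-labelled mice alone 0.812, below 1 in 5 of 6. With 6 mice the smallest p is 0.0312, and the adjusted values of 0.0625 and 0.125 did not pass. Il2 and Cish were seen together in 538 cells against 510 expected, a ratio of 1.06 that did not pass (exact p = 0.102).

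The 1008 Il2-positive cells were then compared with 4038 Il2-negative cells of the same mice and subsets, matched on total UMIs (medians 2714 and 2746.5 UMIs per cell). Of all genes tested 1.57% were called. Il2ra stood at 97.4 ± 35.0 CPM in the positive and 148 ± 25.8 CPM in the negative cells and was lower in 12 of 12 mice, a log2 difference of -0.54 ± 0.10 (edgeR with the mouse as a block, adjusted p = 0.00206). With each negative cell used once, which an added alternative did for equal subset mix, it was -0.56 (adjusted p = 0.0233). Among cells with at least 2 Il2 UMIs, 160 cells of 8 mice, it was -0.09 (adjusted p = 0.969), and in WT-labelled mice alone -0.45 (adjusted p = 0.593). Il2rb (-0.14 ± 0.06), Il2rg (-0.04 ± 0.04) and Cish (0.16 ± 0.07) did not pass (adjusted p = 0.391, 0.841 and 0.391).

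Other cytokine genes marked the Il2-positive cells. Csf2 rose in 11 of 12 mice, with means of 76.8 CPM in negative and 325 CPM in positive cells (log2 2.10 ± 0.20), and the chemokine gene Ccl1 rose in 10 of 12 (2.45 ± 0.33) (edgeR adjusted p = 1.8e-08 and 1.4e-05). The type 2 cytokine genes Il4 (1.62, higher in 9 of 12 mice) and Il13 (1.40, in 7 of 12) rose, and neither was tested in the fit with each negative cell used once. Also higher were Tnfsf11 (0.52) and Cd40lg (0.44), which encode the activation ligands RANKL and CD40 ligand. Il22 fell by 1.57 ± 0.26, and the granzyme genes Gzma by 1.47 and Gzmk by 1.00. Smox, a polyamine oxidase gene, fell by 1.12. The heat shock genes Hspa1a (0.92) and Hspa1b (0.91) rose, as did Rhob (0.60) and Eea1 (0.55). With each negative cell used once, 25 of 3179 tested genes were called in place of 81 of 5164. Csf2, Ccl1, Tnfsf11, Cd40lg, Hspa1a, Hspa1b, Gzma and Prdm1 were among them, while Il22 (adjusted p = 0.069) and Rhob (0.358) were not.

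Of 13 genes in the list of Il2 activators, which also held the receptor-response gene Nr4a1, 3 rose in these cells and none fell. They were Jun (0.48), Nr4a1 (0.24) and Junb (0.18), which respond to T cell receptor signals. The median of the 13 was 0.17, against 0.01 over all genes. None of these 3 passed with each negative cell used once (adjusted p = 0.297, 0.334 and 0.154). Of 6 repressors tested, Zeb1 (-0.46) and Prdm1 (-0.48) were lower. With each negative cell used once Prdm1 passed (adjusted p = 0.0366) and Zeb1 did not (-0.49, adjusted p = 0.0586). Prdm1 encodes Blimp-1, which STAT5 induces and which represses Il2. Of 13 tested genes induced by IL-2 or STAT5 none rose, and Gzmb (-0.58) and Prdm1 were lower, against 1.57% of all genes called. Il21r, the receptor gene of a related cytokine, was lower by a log2 difference of -0.29 ± 0.05. Neither Gzmb (-0.50, adjusted p = 0.122) nor Il21r (-0.24, adjusted p = 0.131) passed with each negative cell used once.

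Il2ra-positive cells were the counterpart. The 5176 positive cells were compared with 9018 matched negative cells, and 17.7% of genes were called. The match was incomplete, since positive cells held a median of 3180.5 and negative cells of 2898 UMIs, and regulatory cells were 5.0% of positive and 1.33% of negative cells. The values below are therefore followed by those with each negative cell used once, which compared 4869 pairs of equal subset mix (medians 3193 and 3120 UMIs). Il2rb rose by 0.41 ± 0.03 (0.31 with each cell used once), Il2rg by 0.18 ± 0.02 (0.13) and Cish by 0.44 ± 0.03 (0.37). All were called in both fits (edgeR with the mouse as a block, adjusted p at most 3.3e-05). Il2 itself did not differ beyond error (0.24 ± 0.19, adjusted p = 0.441, and 0.09 with adjusted p = 0.863).

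Of 16 tested genes induced by IL-2 or STAT5, 12 rose and 1 fell in Il2ra-positive cells, where 17.7% of all genes were called. With each negative cell used once 12 rose and none fell, beside 504 of all 7930 genes that rose and 277 that fell. The median of the list in the first fit was 0.43, against -0.01 over all genes. The genes that rose included the costimulatory receptor genes Tnfrsf9 (1.37, and 0.83 with each cell used once), Tnfrsf4 (0.52 and 0.31) and Tnfrsf18 (0.38 and 0.26). The survival gene Bcl2l1 (0.90 and 0.72) and the kinase gene Pim1 (0.38 and 0.33) rose too. Foxp3 was called at 2.36 but stood at 0.47 with each negative cell used once and did not pass (adjusted p = 0.128), beside the unequal share of regulatory cells given above.

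Of 13 other cytokine genes tested 10 rose, beside 17.7% of all genes called. With each negative cell used once 8 of 12 rose, beside 504 of all 7930 genes that rose and 277 that fell. Ifng, the type 1 cytokine, rose by 1.19 (1.13), Csf2 by 1.71 (1.38) and the chemokine gene Xcl1 by 1.28 (1.94). Il22 (0.62) and Il17a (0.60) were called only in the first fit. Among falls were Gzmk by 1.26 (0.88) and S1pr1, the receptor for exit from tissue, by 0.94 (0.78). Hspa1a fell by 1.02 (0.92), and Jun by 0.50 (0.37). Csf2, Ccl1 and Tnfsf11 were thus higher in both Il2-positive and Il2ra-positive cells, while Il2-positive cells had more and Il2ra-positive cells less Hspa1a, Hspa1b, Jun and Junb, the last 2 of which Il2-positive cells lost with each negative cell used once. The splits share cells, so their values stand side by side with no test between them.

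**Figure D5:**
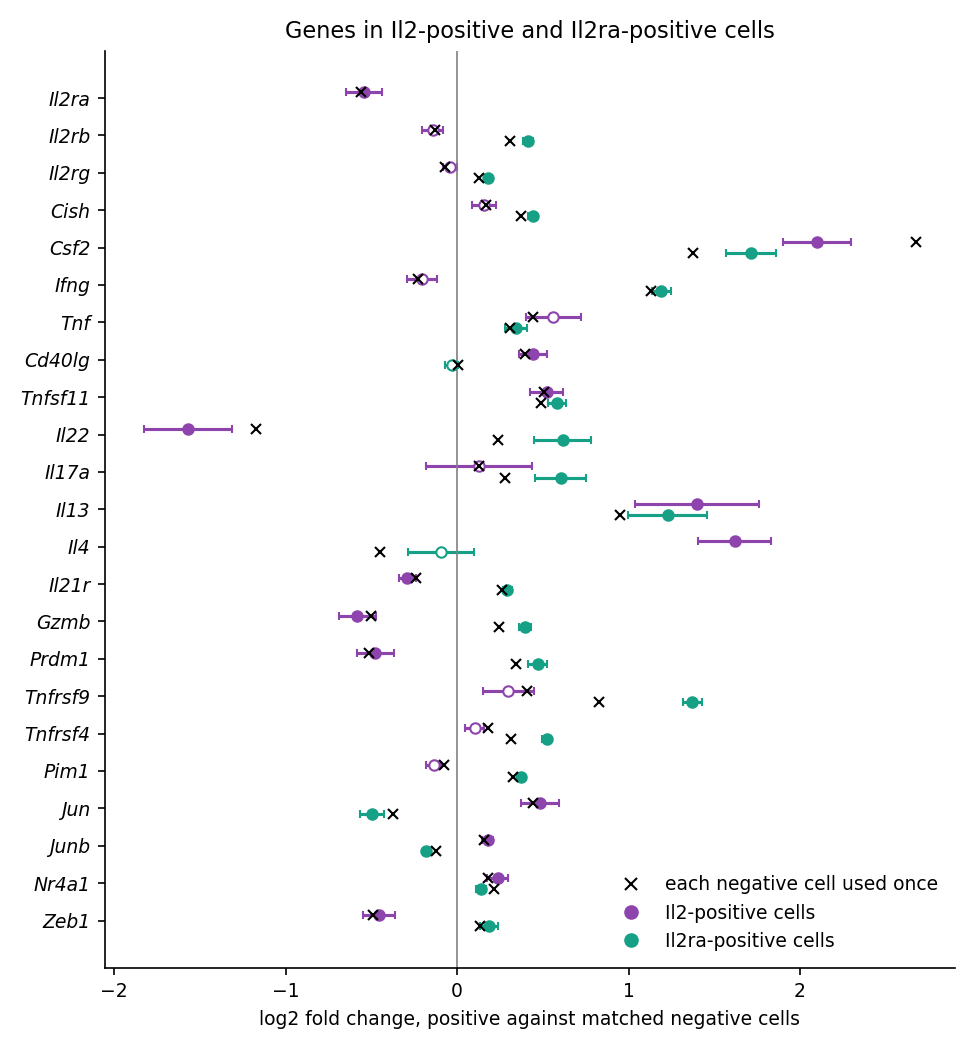
Log2 fold change of named genes in Il2-positive (purple) and Il2ra-positive (green) cells against matched negative cells, with SE bars, filled where the adjusted p was under 0.05. Black crosses show the fit with each negative cell used once, and these genes were picked for display once their values had been seen. Csf2 and Tnfsf11 lay to the right in both, while Prdm1, Gzmb, Il21r and Jun lay on opposite sides of 0.

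Cish-positive cells, 9867 against 8507 matched negative cells, had more of every receptor chain. Here 16.5% of genes were called, positive cells were deeper (medians 3020 and 2580 UMIs), and Th17 cells were 15.4% of positive and 8.10% of negative cells. Il2ra rose by 0.76 ± 0.04, Il2rb by 0.33 ± 0.03 and Il2rg by 0.11 ± 0.02, and by 0.60, 0.26 and 0.09 with each negative cell used once (edgeR adjusted p at most 0.0102). That second fit kept 7362 pairs, and its positive cells were still deeper (medians 2957 and 2705 UMIs). Il2 rose by 0.57 ± 0.10 (0.62 with each cell used once, edgeR adjusted p = 4.1e-05). The level was higher in 9 of 12 mice, with the cells richest in Il2 kept in. Joint detection of Il2 and Cish in a cell, given above, did not pass (exact sign-flip permutation p = 0.102). In WT-labelled mice alone the Il2 value was 0.48 (adjusted p = 0.0659). Tnfrsf9 (0.87 and 0.67), Csf2 (1.64 and 1.34), Il13 (1.87 and 1.83) and Il17a (1.74 and 1.07) rose with Cish. Gzmk and Klf2, a factor of resting and circulating T cells, fell by 1.07 and 0.70 (0.58 and 0.57). Il22 rose by 1.40, but by 0.48 with each negative cell used once.

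The lists that follow sum over subsets whose shares differed between the genotypes. Among feedback inhibitors of cytokine and kinase signals, of 8 tested 5 rose over all cells and none fell, beside 14.2% of all genes called, with a median of 0.37 against 0.00 over all genes. They were Socs2 (0.88 ± 0.10), Dusp5 (0.53), Dusp6 (0.45), Ptpn6 (0.41) and Ptpn2 (0.22). Dusp5 was also called higher in recirculating, cytotoxic, unnamed 3, Th17 and cycling cells, at 0.29 to 0.78. Socs3, at -0.13 over all cells and not called, fell by 1.12 ± 0.17 in cytotoxic cells (edgeR adjusted p = 0.000196).

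Of 9 genes of signal transduction 1 rose and 2 fell over all cells, beside the same 14.2%. Jak3, the kinase bound to the common gamma chain, fell by 0.39 ± 0.07 and Stat5a by 0.28 ± 0.09, while Pik3r1, the regulatory subunit of PI3 kinase, rose by 0.79 ± 0.17 (adjusted p = 0.00156, 0.04 and 0.0045). Stat5b stood at 0.00 ± 0.06 and Jak1 at -0.09 ± 0.04, and neither passed. Of 7 tested other chains and ligands of the common gamma family Il4ra (0.59) and Il21r (0.42) rose, where 14.2% of genes were called. Il21, the neighbour of Il2 on chromosome 3, was at 0.45 ± 0.26 and did not pass (adjusted p = 0.276).

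Of 17 genes induced by IL-2 or STAT5, 5 rose and 2 fell over all cells, where 14.2% of genes were called, with a median of 0.18. Bcl2l1 rose by 0.92 ± 0.10, and the cyclin genes Ccnd2 by 0.71 and Ccnd3 by 0.58. Tnfrsf9 rose by 0.35 and Tnfrsf18 by 0.22, while Prf1 fell by 0.97 and Lta by 0.73. Within unnamed 3 cells, where Il2ra and Cish fell, the list split, beside 8.42% of genes called. Ccnd2 (0.75) and Ccnd3 (0.71) rose, but Tnfrsf4 (-0.76), Tnfrsf9 (-0.66), Tnfrsf18 (-0.36) and Pim1 (-0.35) were lower. In Th17 cells 5 of 13 rose and none fell, where 5.09% of genes were called, led by Gzmb (1.48 ± 0.17), and with Ccnd2 (0.91), Bcl2l1 (0.78), Ccnd3 (0.72) and Pim1 (0.29).

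Activators and repressors of Il2 moved in mixed directions, in the comparison that called 14.2% of genes. Over all cells Nfatc1 (0.36), Junb (0.34) and Cd28, the costimulatory receptor (0.24), rose and Jun fell by 1.00 ± 0.15. These were of the 13 genes in the activator list, Nr4a1 among them. Jun was also lower in 5 subsets, recirculating, unnamed 1, cytotoxic, unnamed 3 and cycling. Il2-positive cells of both genotypes together had more Jun, as given above. That rise did not pass with each negative cell used once (0.44, edgeR adjusted p = 0.297). Of 8 tested repressors Crem (0.73) and Cblb (0.67) rose and Ikzf3 (-0.24) and Ikzf1 (-0.18) were lower. Of 14 other cytokine genes, read against the same 14.2%, 3 rose, namely Tnfsf11 (1.13), Csf2 (0.99) and Cd40lg (0.44), each of which was also higher in Il2-positive cells. Ccl4 (-1.80), Ccl3 (-1.66) and Il22 (-1.61) were lower. In unnamed 3 cells Il4 (-1.29 ± 0.26) and Il13 (-1.85 ± 0.29) were lower (edgeR adjusted p = 0.00147 and 9.3e-05), while Il2 there stood at 0.90.

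Over the 14 groups of subset and genotype, 5969 genes were ranked by how closely their level followed each gene, as a description over points that share 1 library. For Il2 the closest were Pgm2l1 (Pearson r = 0.887), Cd40lg (0.868), Foxj3, Slc4a1ap and Kat6a. For Il2ra they were Ly6e (0.913), Hcls1 (0.910), Ly6a (0.907), Wnk1 and Picalm. Il2rb was followed by Cmtm6 (0.915), Nrd1 (0.915) and Hcls1 (0.915), and Il2rg by Ecm1 (0.940), Chmp4b (0.939) and Srgn (0.936). For Cish the closest were Srgn (0.944), Nfkbie (0.911) and Hivep1 (0.911), and Il2rb (0.901) was among the first 5.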

How the data were processed

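The builds GRCm38 and mm10 and the tools Seurat 3.1.5 and Cell Ranger 3.1.0 are named in the submitters' processing notes. The authors deposited raw UMI counts per gene and cell, with an annotation of mouse, genotype and subset and a percent of mitochondrial UMIs per cell. Every cell's UMI sum equalled the deposited count. No doublet caller was run, and antisense reads cannot be told apart. Members and gene lists were chosen with earlier results of these data known.

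UMIs were summed per mouse, or per mouse and subset with at least 20 cells, and tested by the quasi-likelihood F test of edgeR 4.0.16 (R 4.3.3) after TMM scaling and filterByExpr, with Benjamini-Hochberg adjustment over all genes at 0.05, and the SE taken as the log2 fold change over the root of F. DESeq2 1.42.0 and limma 3.58.1 were alternatives. Positive cells (at least 1 UMI) were matched to 5 negative cells each. Shares used exact thinning to 1500 UMIs and exact permutation over mice. The fits were tested on simulated data. From each list up to 6 called genes were named, by smallest p, and from each split the 8 largest rises and 4 largest falls at a mean log2 CPM of at least 5. Some genes set beside these, such as those that did not pass and those of the splits' figure, were chosen after their values were seen. Donor animals of the T cells are not given, so p-values measure the spread between recipients.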

Additional observations from a re-analysis of the deposited data

Results flagged for a closer look

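In 8 of 75 groups of mice tested, the highest or lowest mouse stood far from the rest. Chance flags about 1 in 20 such groups. Il2 was far above the others in Th17 cells of KO-labelled mouse 1 (333 CPM, where 2 of the 8 cells richest in Il2 lie) and in recirculating cells of WT-labelled mouse 5 (23.8 CPM). Il2ra was far above in recirculating cells of KO-labelled mouse 4 (165 CPM) and in unnamed 1 cells of WT-labelled mouse 4 (456 CPM). Il2rb was far above in unnamed 1 cells of KO-labelled mouse 5 (609 CPM) and in cycling cells of WT-labelled mouse 4 (444 CPM). Cish was far below in recirculating cells of WT-labelled mouse 6 (252 CPM) and in unnamed 3 cells of WT-labelled mouse 5 (238 CPM).

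The genotype effect differed among subsets for Il2ra (adjusted p = 0.00182), Il2rb (0.00903) and Cish (0.00317), in the edgeR fit with the mouse as a block. By pairs, Th17 minus recirculating cells gave 0.83 for Il2ra and regulatory minus recirculating cells gave -0.77 for Il2rb.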

How the results depend on the processing

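Left-out mice, in turn, gave log2 values of 1.57 to 2.03 for Il2 over all cells (edgeR adjusted p at most 0.00556) and 1073 to 1867 called genes in place of 1405. They gave 4 to 9 called tests within subsets in place of 6. For Il2ra in unnamed 1 cells they gave -0.60 to -0.48, and for Il2 in cytotoxic cells 1.81 to 2.16, called each time. Il2 in unnamed 1 cells passed the filter in 7 of these settings and was called in each (2.64 to 2.89). Without KO-labelled mice 1 and 2, whose mix of subsets differed, 770 genes were called over all cells, 723 of them shared, and 175 in unnamed 1, 203 in unnamed 3 and 176 in cycling cells. With no filter 307 genes were called in cytotoxic and 44 in regulatory cells, where 0 to 12 were called with a mouse left out. Il2ra over all cells was -0.34 with equal subset weights. In the Il2-positive split, 24 genes were called with 1 negative cell each, 126 with all negative cells, 24 from 2 UMIs up, 46 with KO-labelled mice alone, 17 with WT-labelled mice alone and 25 with each negative cell used once, in place of 81. In the Il2ra-positive split these were 779, 2290, 823, 915 and 781 (no change past 1.5 times from 2 UMIs up), in place of 1507. In the Cish-positive split, 719 with 1 negative cell, 694 in KO-labelled mice and 548 with each used once stood in place of 1442. The use of each negative cell once was chosen after seeing the data. The unthinned difference of Il2rg shares was 0.824 points, and Il2 with Il2ra gave ratios of 0.764 and 0.812 in KO-labelled and WT-labelled mice alone. The cause was not tested for any of these. Over the alternatives, values of single genes and counts within subsets kept their call, or stayed within 1.5 times, in 740 cases, became stronger in 22 and weaker in 31. The main results did so in 207, with 2 stronger, 16 weaker and 1 reversed. Mice were numbered here within each genotype in the order of their hashtags, so the labels give no pairing of same-numbered mice. Deviations of same-numbered mice had correlations from -0.02 to 0.06, and none was best with its own number. With that number as a replicate block, added after seeing the data, 1312 genes were called over all cells. In the edgeR fit with this arbitrary pairing 3 results gained a call. They were Il2 (0.97, adjusted p = 0.0426) and Il2ra (-0.45, 0.0424) in recirculating cells and Il2rg in cycling cells (0.23, 0.0401). No conclusion is drawn from these gains, since the pairs have no basis in the labels. Few counts limit the precision of Il2, with 11 UMIs in all WT-labelled unnamed 1 cells.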
